A study of Mus musculus with 15 samples.

Results

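The 10 genes described here are 6 matrix metalloproteinases (Mmp2, Mmp8, Mmp9, Mmp12, Mmp13, and Mmp14), the tissue inhibitors of metalloproteinases Timp1 and Timp2, and Adam28 and Adamdec1, which belong to the related ADAM family of proteases. They were listed by symbol and matched to the Ensembl gene identifiers of the count table, where all 10 were found among 19456 genes. All 10 also passed the filter on low counts, which left 15802 genes. The genes were chosen from their levels in these same libraries, so the values of the 10 are a description and carry no p-value.

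RNA was sequenced from cells sorted from adult male wild-type C57BL/6 mice, with no treatment given in the labels. There were 3 libraries of Ly6Chi monocytes from blood and 4 libraries of each of 3 macrophage subsets of the small intestine. These were named Tim-4-CD4-, then Tim-4-CD4+ with CD4 alone, and Tim-4+CD4+ with both surface proteins. Each library held the cells of 3 pooled mice, except monocyte replicate 2, which held those of 4, so the spread between replicates is between pools and not between animals. Whether the subsets of a sort came from the same mice is not given in the sources used here. The gut was digested with Liberase after treatment with dithiothreitol and EDTA, and blood was not digested, so tissue of origin, digestion, and cell type cannot be told apart in comparisons with monocytes. The total count per library ran from 39388763 to 151510641. The defining markers fitted the labels: Timd4, which encodes Tim-4, had a mean of 355 CPM (reads of a gene scaled to a common library total, as counts per 1000000) in Tim-4+CD4+ macrophages against 1.11 and 1.70 in the other macrophages, and Cd4 had means of 816 and 530 CPM in the CD4+ subsets against 22.9 in Tim-4-CD4- macrophages. Among the monocyte genes, Ly6c2 had a mean of 1092 CPM in Ly6Chi monocytes and a mean of at most 1.72 in any macrophage subset. Of 7 macrophage markers, Mertk, Csf1r, Adgre1, and H2-Ab1 were higher in every macrophage library than in every monocyte library, and Cd68, Fcgr1, and Cx3cr1 overlapped between them.

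Matrix metalloproteinases are zinc enzymes that cut collagens, gelatin, elastin, and many other proteins outside the cell. They are made as inactive proforms in which a cysteine of the propeptide blocks the zinc, and the TIMP proteins inhibit the active enzymes by binding the catalytic site. Mmp14 is anchored in the membrane and, together with Timp2, activates the proform of Mmp2. ADAM proteases carry the same kind of zinc site beside a disintegrin domain, and Adamdec1 is a short, soluble member of that family known for its expression in gut macrophages.

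The zinc site is shown because it is what the 8 proteases share and where Adamdec1 differs from the others. Each stretch of 33 coding bases begins and ends with the first and the last of the codons for zinc-binding residues, is written 5′ to 3′ in the direction of the gene, and has its last codon in capitals. The bases are from the GENCODE vM21 transcripts, with positions in GRCm38, and each site lies within a single coding exon.

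Mmp9 (chr2:164951133-164951165, plus strand, exon 8): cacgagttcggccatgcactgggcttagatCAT
Mmp2 (chr8:92839279-92839311, plus strand, exon 8): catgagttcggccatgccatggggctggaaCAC
Mmp13 (chr9:7276573-7276605, plus strand, exon 5): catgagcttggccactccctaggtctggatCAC
Mmp8 (chr9:7563086-7563118, plus strand, exon 5): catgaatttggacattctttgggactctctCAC
Mmp12 (chr9:7352914-7352946, plus strand, exon 5): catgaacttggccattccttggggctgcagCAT
Mmp14 (chr14:54437627-54437659, plus strand, exon 5): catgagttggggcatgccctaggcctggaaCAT
Adam28 (chr14:68633167-68633199, minus strand, exon 11): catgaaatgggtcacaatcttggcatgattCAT
Adamdec1 (chr14:68570127-68570159, minus strand, exon 11): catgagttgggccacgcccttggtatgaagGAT

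In 7 of the 8 genes the last codon was CAT or CAC, both of which encode histidine, and in Adamdec1 it was GAT, which encodes aspartate. Counted from 1 at the first base of the site, and with the base of Adam28 first, this is the substitution C31G. The 6 metalloproteinases each held the conserved cysteine motif of the propeptide once in their translated coding sequence, and neither Adam28 nor Adamdec1 held it. Only the metalloproteinase form of this motif was searched, so another form in the ADAM genes would have been missed. Of the 10 genes, only Mmp14 held a run of basic residues of the type cut by furin. The coding sequence of Adamdec1 was 1401 bases long and that of Adam28 2379, and over 443 aligned residues the translated sequences were 38.6% identical. Timp1 and Timp2 held no such zinc site, and the translated sequences of these inhibitors were 40.9% identical over 198 residues.

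Of the gelatinases, Mmp9 was present at a high level in every macrophage library and highest in Tim-4-CD4+ macrophages. It had 1401, 1809, 1487, and 1436 CPM in Tim-4-CD4-, 2966, 2886, 3180, and 3276 CPM in Tim-4-CD4+, and 2107, 2366, 2197, and 1958 CPM in Tim-4+CD4+ macrophages. The 3 subsets did not overlap. The level in Tim-4-CD4+ macrophages was 2.01-fold that in Tim-4-CD4- macrophages (log2 difference 1.01 ± 0.12, SE of the fit), and the level in Tim-4+CD4+ macrophages lay between them, 1.41-fold above Tim-4-CD4- (log2 0.49 ± 0.12) and below Tim-4-CD4+ macrophages (log2 -0.51 ± 0.12). The monocyte libraries had 1.53, 1.07, and 0.892 CPM of Mmp9.

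Mmp2, the other gelatinase, was higher in both CD4+ subsets than in Tim-4-CD4- macrophages but did not separate the CD4+ subsets. Its levels were 130, 156, 105, and 132 CPM in Tim-4-CD4-, 245, 282, 299, and 308 CPM in Tim-4-CD4+, and 357, 268, 283, and 283 CPM in Tim-4+CD4+ macrophages. All 8 CD4+ libraries lay above the 4 Tim-4-CD4- libraries, by 2.17-fold (log2 1.12 ± 0.17) and 2.28-fold (log2 1.19 ± 0.17), and the CD4+ subsets overlapped (log2 difference 0.07 ± 0.17). The counts of Mmp2 in monocytes were 27, 4, and 3, and the log2 difference of 10.18 ± 0.32 between Tim-4-CD4- macrophages and monocytes was 11.48 without monocyte replicate 1.

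Mesenchymal cells of the gut wall also make Mmp2, Mmp14, and Timp2. The summed level of a list of 10 mesenchymal markers, all of them in the table, moved in part with Mmp2 and Mmp14. Among the macrophages it did not move with Timp2, which had 65.5 to 75.4 CPM in Tim-4-CD4- and 51.8 to 71.8 CPM in Tim-4+CD4+ libraries. The sum was 73.5 to 109 CPM in Tim-4-CD4-, 86.5 to 110 CPM in Tim-4-CD4+, and 117 to 163 CPM in Tim-4+CD4+ macrophages, against 1.47 to 2.20 CPM in monocytes. Col3a1 had mean levels of 27.2, 27.8, and 46.1 CPM in the 3 macrophage subsets. In monocytes nearly all of the sum was Pdgfrb, with 1.39 to 2.18 CPM, which overlapped its 0.938 to 4.33 CPM in the macrophages, while Lum, Pdgfra, and Des were at 0 and the other 6 at or near 0. The marker sums of both Tim-4- subsets overlapped while their Mmp2 levels did not, and the part of such cells in the levels of Mmp2, Mmp14, and Timp2 was not tested.

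The 2 collagenases went opposite ways between blood and gut. Mmp13 had 561, 517, 664, and 640 CPM in Tim-4-CD4-, 1036, 944, 734, and 968 CPM in Tim-4-CD4+, and 672, 1033, 721, and 843 CPM in Tim-4+CD4+ macrophages, and 0.34, 0.36, and 0.241 CPM in monocytes. Both CD4+ subsets lay above Tim-4-CD4- macrophages without overlap, by log2 0.63 ± 0.14 and 0.46 ± 0.14, and the CD4+ subsets overlapped each other. Mmp8, known as the collagenase of neutrophils, had 202, 211, and 144 CPM in monocytes and fell short of 2 CPM in every macrophage library.

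Within the macrophages, Mmp8 had 1.72, 1.09, 0.668, and 0.569 CPM in Tim-4-CD4-, 0.147, 0.152, 0.268, and 0.405 CPM in Tim-4-CD4+, and 0.0389, 0.172, 0.129, and 0.282 CPM in Tim-4+CD4+ libraries. These levels rest on 22 to 94 reads per library in Tim-4-CD4-, 6 to 60 in Tim-4-CD4+, and 4 to 20 in Tim-4+CD4+ macrophages. Both CD4+ subsets lay below all Tim-4-CD4- libraries (log2 -1.88 ± 0.40 and -2.83 ± 0.44) and overlapped each other. The monocyte marker Ccr2 had the same order, with means of 2629 CPM in monocytes, 660 CPM in Tim-4-CD4-, 84.1 CPM in Tim-4-CD4+, and 8.39 CPM in Tim-4+CD4+ macrophages. Plac8 had a mean of 1717 CPM in monocytes and 58.8, 8.52, and 7.60 CPM in the macrophage subsets, and Ly6c2 had 1.72, 1.35, and 0.726 CPM there. The part of monocytes in the macrophage libraries' Mmp8 was not tested. Of 9 neutrophil markers 6 were in the table, with sums of 9.25 to 14.98 CPM in monocytes and 0.230 to 2.09 CPM in macrophages. Most of that sum in monocytes was Prtn3, with a mean of 10.5 CPM, while Cxcr2 and Ltf had means of 0.199 and 0.0708 CPM. Elane and Mpo had at most 0.486 and 0.963 CPM in any monocyte library, and Retnlg was at 0 in all of them.

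Mmp12, the macrophage elastase, was highest in Tim-4-CD4- macrophages and lowest in Tim-4+CD4+ macrophages. It had 31.3, 21.0, 26.2, and 23.7 CPM in Tim-4-CD4-, 10.6, 10.3, 7.11, and 12.2 CPM in Tim-4-CD4+, and 7.42, 6.01, 3.83, and 3.63 CPM in Tim-4+CD4+ macrophages. The Tim-4-CD4- libraries stood apart from the rest, by 2.54-fold (log2 -1.35 ± 0.21 for Tim-4-CD4+) and 4.86-fold (log2 -2.28 ± 0.22 for Tim-4+CD4+). The CD4+ subsets differed by log2 -0.94 ± 0.21 and overlapped in 1 library each, Tim-4-CD4+ replicate 3 and Tim-4+CD4+ replicate 1. Monocytes had 0.269, 0.263, and 0.297 CPM and lay below every macrophage library, and the fold over monocytes ran from log2 4.26 ± 0.30 for the Tim-4+CD4+ libraries up to 6.54 ± 0.32 for those without either protein.

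Mmp14, the membrane-bound enzyme that activates the proform of Mmp2, had 630, 552, 524, and 542 CPM in Tim-4-CD4-, 705, 761, 742, and 856 CPM in Tim-4-CD4+, and 982, 757, 699, and 806 CPM in Tim-4+CD4+ macrophages. No CD4+ library overlapped the Tim-4-CD4- libraries, but the differences were small, at log2 0.45 ± 0.17 and 0.53 ± 0.17. The CD4+ subsets overlapped, with a log2 difference of 0.08 ± 0.17. Monocytes had 3.87, 2.50, and 1.60 CPM.

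The inhibitor Timp2 did not separate the macrophage subsets. It had 65.5, 75.4, 67.6, and 70.3 CPM in Tim-4-CD4-, 54.7, 51.9, 73.7, and 48.2 CPM in Tim-4-CD4+, 54.5, 51.8, 71.8, and 54.2 CPM in Tim-4+CD4+ macrophages, and 42.7, 49.6, and 55.7 CPM in monocytes. The macrophage subsets overlapped one another, and the Tim-4-CD4- libraries alone lay above all monocyte libraries, by 1.41-fold (log2 0.50 ± 0.15).

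Timp1 was near the limit of detection everywhere, with 1 to 17 reads per library. Its levels were 0.292, 0.235, 0.216, and 0.440 CPM in Tim-4-CD4-, 0.165, 0.101, 0.128, and 0.0405 CPM in Tim-4-CD4+, 0.0584, 0.0344, 0.0161, and 0.0829 CPM in Tim-4+CD4+ macrophages, and 0.00708, 0.0195, and 0.130 CPM in monocytes. The Tim-4-CD4- libraries were above all others, although the log2 difference from monocytes of 2.70 ± 0.87 was 4.39 without monocyte replicate 3, which held 7 of the 10 monocyte reads, and 2.08 without monocyte replicate 1. Timp1 (chrX:20870166-20874735) overlaps Syn1 on the opposite strand, Syn1 had 4 to 75 reads per library, and whether strand was used in counting is not given in the sources used here. Timp2 (chr11:118301069-118355740) overlaps Cep295nl in the same way, which had at most 32 reads in any library, and Mmp12 overlaps Mmp1b, which was not analysed here.

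Adam28 was low, but had the largest fold of the 10 genes between macrophage subsets. It had 0 reads in all 3 monocyte libraries, where a count of 0 allows up to 3 reads. The macrophages had 0.183, 0.369, 0.237, and 0.0259 CPM in Tim-4-CD4- (10, 22, 11, and 1 reads), 0.916, 0.632, 0.805, and 0.965 CPM in Tim-4-CD4+ (50, 25, 63, and 143 reads), and 4.93, 5.90, 4.05, and 5.57 CPM in Tim-4+CD4+ libraries (507, 686, 252, and 336 reads). The 3 subsets did not overlap. The step between the Tim-4- subsets was 3.94-fold (log2 1.98 ± 0.41), that between the CD4+ subsets was 6.12-fold (log2 2.61 ± 0.38), and both together made 24.1-fold (log2 4.59 ± 0.43). Against 3 reads in each monocyte library, the mean was at least 5.75-fold higher in Tim-4-CD4-, at least 23.4-fold higher in Tim-4-CD4+, and at least 144-fold higher in Tim-4+CD4+ macrophages. In these bulk libraries, more cells that make a transcript and more transcript per cell cannot be told apart.

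Adamdec1 had the same order at a far higher level. Its levels were 297, 252, 260, and 315 CPM in Tim-4-CD4-, 820, 993, 774, and 1086 CPM in Tim-4-CD4+, and 1964, 1697, 1695, and 1935 CPM in Tim-4+CD4+ macrophages, and 0.850, 0.525, and 0.316 CPM in monocytes. The 3 macrophage subsets again did not overlap, and every macrophage library was far above every monocyte library. The steps were 3.27-fold (log2 1.71 ± 0.16) between the Tim-4- subsets and 1.98-fold (log2 0.99 ± 0.16) between the CD4+ subsets, 6.49-fold in all (log2 2.70 ± 0.17). The log2 difference from monocytes was 8.86 ± 0.27, 10.57 ± 0.28, and 11.55 ± 0.29 in the same order.

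**Figure D1:**
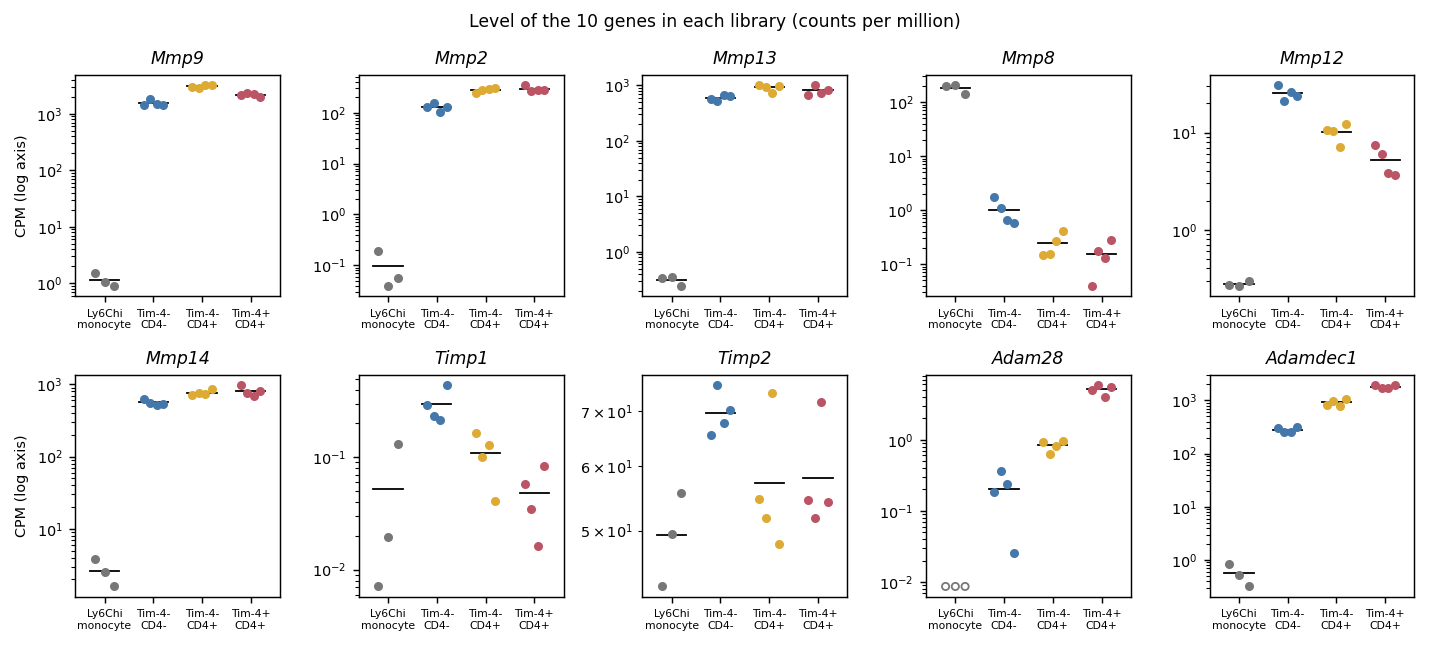
Level of each gene in every library in CPM, on a log axis that differs between panels. Points are libraries, black lines are means of a population, and open circles mark libraries with 0 reads, drawn below the lowest value. Adam28 and Adamdec1 climb from left to right over the macrophages, Mmp12 goes down, Mmp9 peaks in Tim-4-CD4+ macrophages, and Mmp8 is high in monocytes.

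**Figure D2:**
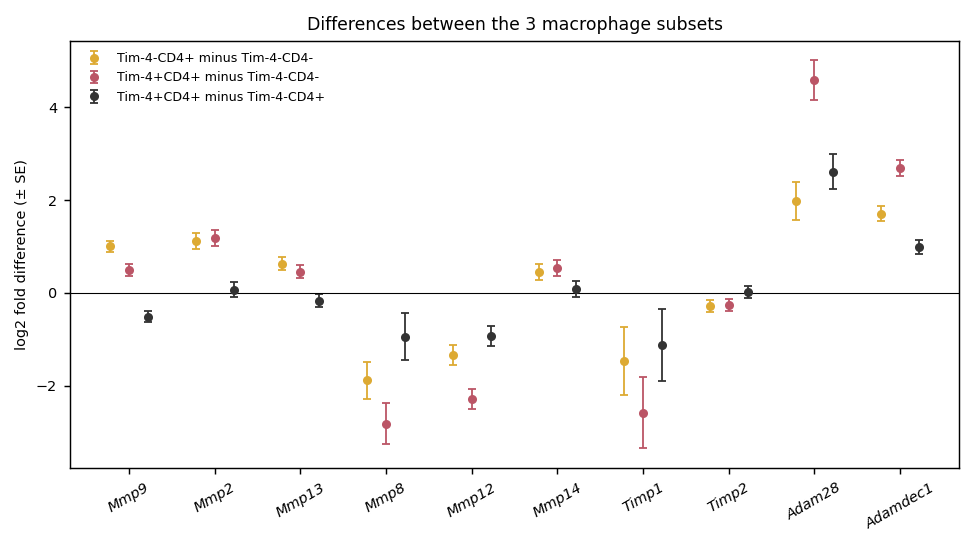
Log2 difference of each gene between the macrophage subsets, with SE of the fit as error bars. Adam28 has the largest differences of the 10 genes, up to 4.59, Mmp12, Mmp8, and Timp1 lie below 0 in all 3 comparisons, and Mmp9 in Tim-4+CD4+ macrophages is at 0.49 against the Tim-4-CD4- and -0.51 against the Tim-4-CD4+ subset.

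Compared per length of the annotated exons (RPKM, which is CPM divided by kilobases of exon), the order of the 10 genes differed between the subsets. In Tim-4-CD4- macrophages, Mmp9 was first with a mean of 433 RPKM, followed by Mmp13 with 223, Adamdec1 with 115, Mmp14 with 94.3, and Mmp2 with 38.8 RPKM. Adamdec1 and Mmp14 were not separated there, since their libraries ran from 103 to 129 and from 87.9 to 106 RPKM. In Tim-4-CD4+ macrophages Mmp9 had 869, Adamdec1 376, and Mmp13 344 RPKM, the last 2 with overlapping libraries. In Tim-4+CD4+ macrophages Adamdec1 was first with 746 RPKM, and its libraries, from 694 to 804 RPKM, lay above those of Mmp9, from 553 to 669 RPKM. Of the inhibitors, Timp2 had means of 17.9, 14.7, and 14.9 RPKM in the 3 subsets, below each of Mmp9, Mmp13, Adamdec1, Mmp14, and Mmp2 in every macrophage subset. Mmp12 had 3.53, 1.39, and 0.722 RPKM and Adam28 0.0222, 0.0903, and 0.557 RPKM in these subsets. In monocytes Mmp8 led with 76.6 RPKM, Timp2 followed with 12.7, and no other of the 10 genes reached 1 RPKM.

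The share of all genes past the threshold gives the background for these differences (adjusted p under 0.05 in edgeR's quasi-likelihood test over all tested genes). Against monocytes, 37.3% of genes were higher and 28.1% were lower in Tim-4-CD4- macrophages. For the Tim-4-CD4+ subset these shares were 39.1% and 30.7%, and for the Tim-4+CD4+ subset they were 39.5% and 31.3%. Of the 10 genes, 9, 7, and 7 were past the threshold as higher in these comparisons, and 1 in each, Mmp8, as lower. In Tim-4-CD4+ macrophages 4.52% of genes were higher and 5.53% were lower relative to the Tim-4-CD4- subset, and 5 and 2 of the 10 were. In Tim-4+CD4+ macrophages the shares relative to the same subset were 11.3% and 11.9%, and 6 and 3 of the 10 were higher and lower. These 9 calls were 7 to 9 when each library was left out. Between the CD4+ subsets, with the Tim-4+ subset first, the shares were 2.07% and 1.34%, and 2 of the 10 were higher (Adam28 and Adamdec1) and 2 lower (Mmp9 and Mmp12). Mmp9 and Mmp12 both missed the threshold when Tim-4-CD4+ replicate 1 or 4 or Tim-4+CD4+ replicate 3 or 4 was left out, which left 2 of the 10. As the genes were chosen from these comparisons, nothing is read from their counts.

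Mmp8, Mmp12, and Mmp13 lie in a cluster of 13 annotated genes that spans 427072 bases of chromosome 9, from Mmp13 to Mmp7. Of these, 7 were in the table, all of them metalloproteinases, and the others were not analysed here. The 7 genes had no common pattern. Mmp13 (chr9:7272514-7283331) was high in all macrophages, its nearest neighbor in the table, Mmp12 (chr9:7344381-7369499) was highest in Tim-4-CD4- macrophages, and Mmp8 (chr9:7558456-7568485) was high in monocytes only. Between Mmp12 and Mmp8, Mmp10, known as stromelysin 2, had 0 reads in all monocyte libraries. Its means were 0.748 CPM in Tim-4-CD4-, 0.990 CPM in Tim-4-CD4+, and 2.60 CPM in Tim-4+CD4+ macrophages. These macrophage means had the order opposite to Mmp12, but the Tim-4-CD4+ libraries of Mmp10 overlapped those of both other macrophage subsets. Mmp3, Mmp7, and Mmp27 had at most 25, 8, and 32 reads in any library.

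Adam28 (chr14:68606027-68655842) and Adamdec1 (chr14:68563380-68582095) lie on the minus strand of chromosome 14, with 23931 bases between them. Of 13 annotated genes within 500 kb of either gene, the table held these and Stc1, which had 0 reads in all monocyte libraries and 1 to 68 reads in the macrophage libraries. In contrast to the metalloproteinase cluster, the 2 ADAM genes had the same order over the 4 populations, with levels per length that differed by orders of magnitude. In Tim-4+CD4+ macrophages the means were 746 RPKM for Adamdec1 and 0.557 RPKM for Adam28.

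**Figure D3:**
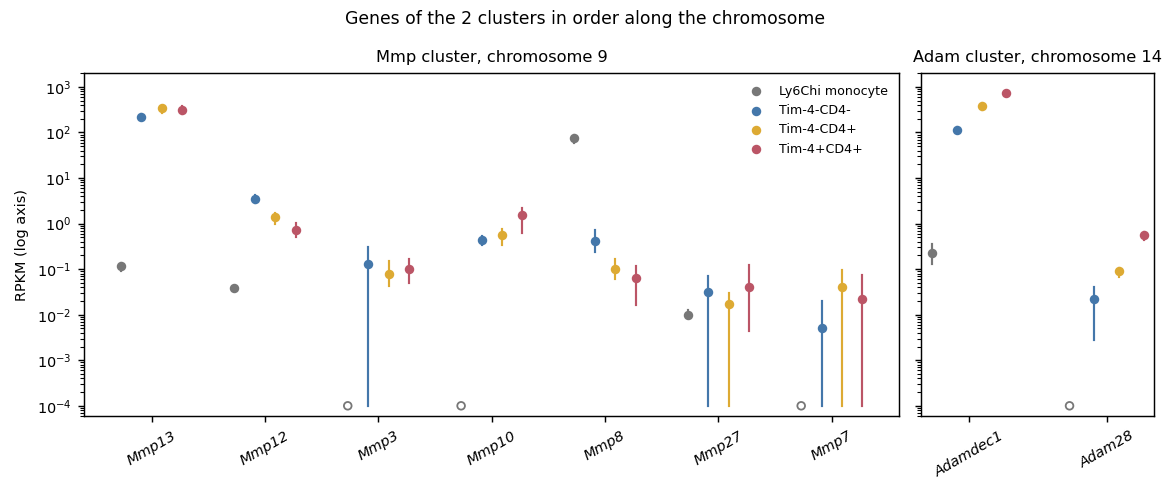
Mean level of the genes of both clusters in RPKM on a log axis, in the order in which they lie on the chromosome. Points are means, vertical lines run from the lowest to the highest library of a population, lines that reach the bottom include libraries with 0 reads, and open circles mark populations with 0 reads. Neighbors on chromosome 9 differ in which population is highest, and Adamdec1 and Adam28 on chromosome 14 have the same order.

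The stretches before the starts of Mmp13 and Mmp12 are shown because, relative to Tim-4-CD4- macrophages, Mmp13 was higher and its neighbor Mmp12 lower in both CD4+ subsets. Promoter windows from RefSeq were used for 6 of the 10 genes (Mmp8, Mmp12, Mmp13, Mmp14, Timp1, and Timp2), with 2 starts for Mmp12, and the 250 bases before each start were searched on both strands. The AP-1 motif TGANTCA, in capitals here, was found in the window of Mmp13 at position -35 from the start and in that of the downstream start of Mmp12 at position -44, and in no other of the 7 windows. It was present in 6.75% of all 32851 windows of this length. The sequences are from RefSeq on GRCm38.p6, and of the 2 windows of Mmp12 only the downstream one, which held the motif, is printed.

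Mmp13 (chr9:7272264-7272513, plus strand): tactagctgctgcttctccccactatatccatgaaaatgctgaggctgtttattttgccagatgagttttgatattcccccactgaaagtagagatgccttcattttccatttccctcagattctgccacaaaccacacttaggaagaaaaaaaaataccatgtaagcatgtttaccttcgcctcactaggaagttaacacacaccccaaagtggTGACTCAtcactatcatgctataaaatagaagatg
Mmp12 (chr9:7347124-7347373, plus strand): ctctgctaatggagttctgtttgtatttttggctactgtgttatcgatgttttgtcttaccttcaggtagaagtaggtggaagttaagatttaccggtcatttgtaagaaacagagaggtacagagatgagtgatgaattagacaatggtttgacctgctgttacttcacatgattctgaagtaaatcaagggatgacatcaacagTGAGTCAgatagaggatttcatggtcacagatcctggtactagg

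The letters GAGGAAGT, a form of the motif bound by the myeloid factor PU.1, were found in the windows of Mmp8 and of the upstream start of Mmp12, and in 2.44% of all windows. The letters TATAAA were found in the window of Mmp13 at position -16 and in no other of the 7, and in 12.4% of all windows. None of these matches overlapped another. A match is a description of the letters only.

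To place the 10 genes among related ones, lists of 76 other proteases, inhibitors, activators, and uptake receptors were read in the same fit, of which 63 were in the table and 55 passed the filter. These genes were not part of the choice of the 10, but the lists were drawn up with earlier results of these data known. Against monocytes, 33 of the 55 rose and 13 fell in Tim-4-CD4-, and 35 rose and 13 fell in each of the CD4+ subsets. These are 60% and 23.6%, and then 63.6% and 23.6%, of the 55, beside 37.3% and 28.1%, 39.1% and 30.7%, and 39.5% and 31.3% of all tested genes. The median log2 difference of the 55 was 1.44, 1.77, and 1.91, beside medians of 0.08, 0.11, and 0.10 over all tested genes. Relative to the Tim-4-CD4- subset, 6 of the 55 rose and 5 fell in Tim-4-CD4+ macrophages, and 7 rose and 6 fell in Tim-4+CD4+ macrophages. Of the 55 these are 10.9% and 9.09%, beside 4.52% and 5.53% of all genes, and 12.7% and 10.9%, beside 11.3% and 11.9%, so the second pair was close to that of all genes. Relative to the Tim-4-CD4+ subset, 2 rose and 0 fell in Tim-4+CD4+ macrophages by edgeR, with 9 higher and 4 lower at an unadjusted p under 0.05, and 3 rose and 0 fell by DESeq2. The 2 are 3.64% of the list, beside 2.07% of all genes. The share of all genes at an unadjusted p under 0.05 was not computed, so nothing is read from the unadjusted counts of these lists. The adjusted count between the Tim-4- subsets, 11 in all, was 4 in a fit that lacked Tim-4-CD4+ replicate 2 and 5 in a fit that lacked replicate 4. It was 6 in a fit that lacked Tim-4-CD4- replicate 3, and 7 when replicate 1, 2, or 4 of that subset or replicate 1 of the Tim-4-CD4+ subset was lacking.

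Among the other metalloproteinases, 9 of 17 were tested, and 5 rose and 2 fell in Tim-4-CD4- macrophages against monocytes, 6 and 2 in each CD4+ subset. In Tim-4-CD4- macrophages these were 55.6% and 22.2%, beside 37.3% and 28.1% of all genes. Mmp28, the epilysin, fell in all 3 macrophage subsets, from a mean of 5.10 CPM in monocytes to 0.310, 0.108, and 0.130 CPM (log2 -4.03 ± 0.63, adjusted p = 2.89e-05, log2 -5.40 ± 0.67, adjusted p = 2.04e-06, and log2 -5.32 ± 0.67, adjusted p = 2.08e-06). Without Tim-4-CD4+ replicate 3 the second of these was -6.55. Mmp25, which is tethered to the membrane of leukocytes, had a mean of 9.57 CPM in Tim-4-CD4-, 4.12 CPM in Tim-4-CD4+, and 2.39 CPM in Tim-4+CD4+ macrophages. It was at 0.613 CPM in monocytes, and it fell in both CD4+ subsets against Tim-4-CD4- macrophages (log2 -1.22 ± 0.34, adjusted p = 0.0309, and log2 -2.00 ± 0.35, adjusted p = 0.000468). The first of these calls was lost in 7 of the 24 alternatives. Mmp10 rose in the Tim-4+CD4+ relative to the Tim-4-CD4- subset (log2 1.79 ± 0.38, adjusted p = 0.00343).

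Of the other ADAM proteases 11 of 13 were tested. Against monocytes, 5 rose and 3 fell in Tim-4-CD4- and 6 rose and 3 fell in each CD4+ subset. The 45.5% and 27.3% in Tim-4-CD4- macrophages were near the 37.3% and 28.1% of all genes. Adam33 followed the order of Adam28 and Adamdec1, with means of 12.3 CPM in Tim-4-CD4-, 18.7 CPM in Tim-4-CD4+, and 58.6 CPM in Tim-4+CD4+ macrophages. It rose in the last of these against the first (log2 2.26 ± 0.23, adjusted p = 2.26e-06) and against the second (log2 1.65 ± 0.23, adjusted p = 0.000252), with no overlap of libraries in either. Unlike Adam28 and Adamdec1, Adam33 was not past the threshold between the Tim-4- subsets. Its libraries there, with 9.31 to 14.7 and 16.4 to 23.1 CPM, did not overlap. The sum of mesenchymal markers was also highest in Tim-4+CD4+ macrophages, at 117 to 163 CPM. The part of such cells in the level of Adam33 was not tested. Adam8, a protease of leukocytes, had means of 20.2 CPM in monocytes and 11.5, 5.39, and 4.32 CPM in the 3 macrophage subsets, and it fell in both CD4+ subsets against Tim-4-CD4- macrophages (log2 -1.09 ± 0.23, adjusted p = 0.00553, and log2 -1.41 ± 0.23, adjusted p = 0.000314). Tim-4-CD4- replicate 3 had 17.7 CPM of Adam8 and the others of its subset 8.33 to 11.4 CPM. Without that replicate the log2 differences were -0.81 and -1.12. Adam23, whose protein lacks a working zinc site, rose from a mean of 0.0103 CPM in monocytes to 13.4, 24.9, and 26.0 CPM in the macrophages (log2 9.80 ± 0.33, 10.70 ± 0.33, and 10.76 ± 0.33, adjusted p = 1.72e-13, 4.44e-14, and 3.61e-14), values that were 10.71, 11.61, and 11.67 without monocyte replicate 1. It also rose in the Tim-4-CD4+ relative to the Tim-4-CD4- subset (log2 0.90 ± 0.15, adjusted p = 0.000871).

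Of the ADAMTS proteases 12 of 19 were tested, with 7 higher and 3 lower in Tim-4-CD4- macrophages than in monocytes and 8 and 3 in each CD4+ subset. In the first of these 58.3% were higher and 25.0% lower, beside 37.3% and 28.1% of all genes. Adamts1 had 0 reads in all monocyte libraries and was at least 94.9-fold higher in Tim-4-CD4- and at least 95.5-fold higher in Tim-4+CD4+ macrophages (adjusted p = 4.38e-09 and 3.44e-09). Adamts6 fell from 4.79 CPM in monocytes to 0.534 CPM in Tim-4+CD4+ macrophages (log2 -3.17 ± 0.42, adjusted p = 4.30e-06), and it fell there relative to the 1.58 CPM of the Tim-4-CD4- subset (log2 -1.57 ± 0.40, adjusted p = 0.00797). By edgeR, 0 genes of this list passed the threshold in Tim-4-CD4+ macrophages against either of the other subsets, as by DESeq2, with 2 and 3 at an unadjusted p under 0.05.

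Among the other inhibitors, 4 of 7 were tested. All 4 rose in Tim-4-CD4- and 3 of 4 in each CD4+ subset against monocytes, where 37.3% to 39.5% of all genes were higher. Spock1, which encodes the proteoglycan testican 1, stood apart within the macrophages. It had 0 reads in the monocytes and 0.310, 0.385, 0.388, and 1.09 CPM in Tim-4-CD4-, 3.41, 3.99, 2.69, and 3.26 CPM in Tim-4-CD4+, and 23.5, 29.5, 35.8, and 34.9 CPM in Tim-4+CD4+ macrophages. The subsets did not overlap, and each step passed the threshold, with log2 2.67 ± 0.30 (adjusted p = 5.04e-05) for the first and log2 3.22 ± 0.27 (adjusted p = 5.79e-06) for the second. Over both steps Spock1 rose by log2 5.89 ± 0.32 (adjusted p = 8.34e-09). Against 3 reads in each monocyte library, it was at least 94.3-fold higher in Tim-4-CD4+ and at least 874-fold higher in Tim-4+CD4+ macrophages (adjusted p = 3.23e-09 and 5.34e-11).

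In the plasminogen system, whose plasmin can activate metalloproteinase proforms, 8 of 9 genes were tested, and 6 rose and 0 fell against monocytes in each macrophage subset, with the same counts at an unadjusted p under 0.05 and by DESeq2. The 6 are 75.0% of the list, beside 37.3% to 39.5% of all genes. Relative to the Tim-4-CD4- subset, 1 gene of this list rose in Tim-4-CD4+ macrophages and 2 rose in Tim-4+CD4+ macrophages. These are 12.5% and 25% of the list, beside 4.52% and 11.3% of all genes. Between the CD4+ subsets 0 passed by edgeR and by DESeq2, and 1 was at an unadjusted p under 0.05.

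In the list of activation, docking, and uptake, all 11 genes were tested, and in each macrophage subset 6 rose and 5 fell against monocytes, or 54.5% and 45.5%, beside 37.3% to 39.5% and 28.1% to 31.3% of all genes. Lrp1, the receptor that takes up several metalloproteinases and their inhibitors, had a mean of 1597 CPM in monocytes and 336, 297, and 321 CPM in the macrophages. It fell in the 3 subsets by 2.25 ± 0.21 (adjusted p = 7.56e-08), 2.43 ± 0.21 (adjusted p = 2.60e-08), and 2.31 ± 0.21 (adjusted p = 4.31e-08) on the log2 scale. The integrin subunit gene Itgb3 fell in the 3 subsets by 4.60 ± 0.35, 4.10 ± 0.34, and 4.21 ± 0.34 on the log2 scale (adjusted p = 5.09e-09, 1.21e-08, and 8.04e-09). In Tim-4-CD4+ macrophages, relative to the Tim-4-CD4- subset, Itgav rose (log2 0.59 ± 0.18, adjusted p = 0.0462) and Cd44, a surface receptor that can hold Mmp9, fell (log2 -0.53 ± 0.16, adjusted p = 0.0460). Both of these calls were close to the threshold, and they were lost in 10 and 14 of the 24 alternatives.

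**Figure D4:**
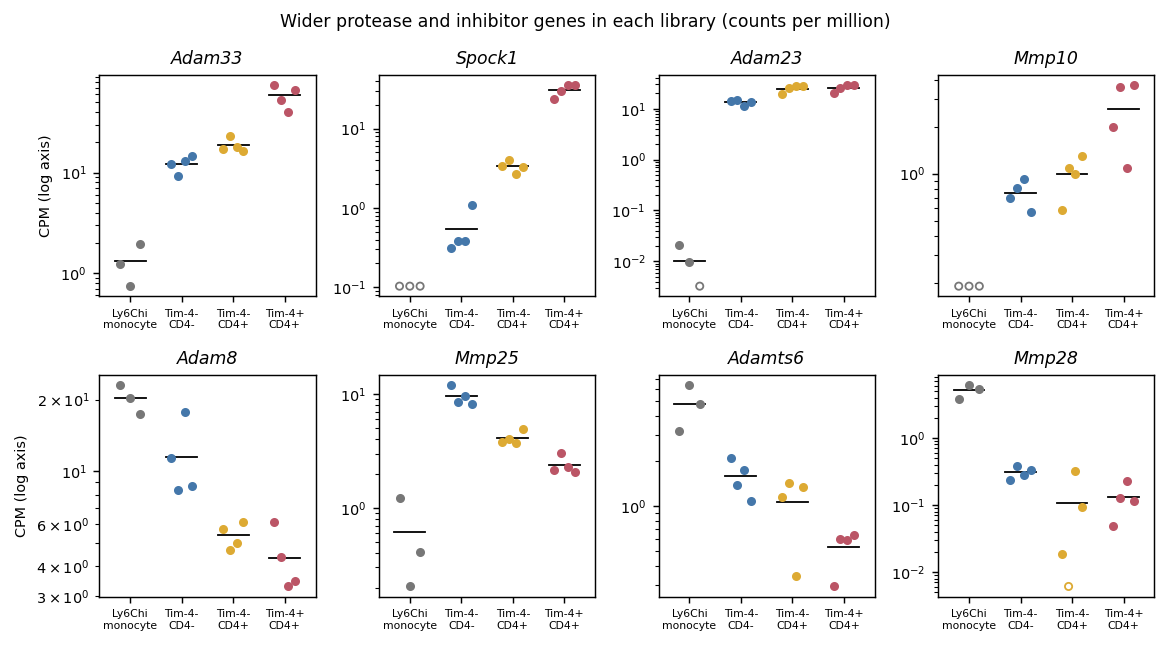
Level in every library in CPM, on log axes, of 8 genes from the wider lists. Points are libraries, black lines are means of a population, and open circles mark libraries with 0 reads. Spock1 and Adam33 climb from left to right over the macrophages, Adam8 and Mmp25 go down, and Adam23 and Mmp28 separate macrophages from monocytes in opposite directions.

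The genes whose log2 level was most like that of each gene over the 12 macrophage libraries were found among all genes with a mean of at least 1 CPM, for the 8 of the 10 that reached that mean in macrophages. The likeness is Pearson's r, given with no p, and its 12 points share 3 populations. For Adamdec1 these were Ccl24 (0.990), a chemokine that attracts eosinophils, Pecam1 (0.989), and Fam189a2 (0.988). For Adam28 they were Aspa (0.973), Agpat3 (0.970), and Adcy4 (0.959). Mmp2 was closest to Pxdc1 (0.990), Ctsl (0.986), which encodes the lysosomal protease cathepsin L, and Fam213a (0.983). Mmp12 was closest to Spns3 (0.980), Chst12 (0.972), and Parvg (0.971), and Mmp14 to Fcrl1 (0.971), Tmem82 (0.968), and Zfp956 (0.964). Mmp9 was closest to Mcfd2 (0.955), Galm (0.932), and Tsc22d1 (0.918), Mmp13 to Tnfrsf11a (0.952), which encodes RANK, Ms4a6d (0.934), and Cxcl9 (0.934), and Timp2 to Cct7 (0.944) and Samd1 (0.939). After the mean of each population was subtracted, 1 of these 24 genes was still among the closest 3.

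Markers of other cell types were detected in the macrophage libraries, and some had the same order as genes among the 10. Pecam1 is also a marker of endothelium, and the sum of 5 endothelial markers, all in the table, was 114 to 147 CPM in Tim-4-CD4-, 180 to 224 CPM in Tim-4-CD4+, and 302 to 372 CPM in Tim-4+CD4+ macrophages, against 11.9 to 21.0 CPM in monocytes. Most of it was Pecam1, with means of 104, 185, and 305 CPM, while Cdh5 had 4.58, 3.33, and 5.24 CPM. Kdr, Tek, and Plvap, like Cdh5, had their lowest macrophage means in the Tim-4-CD4+ subset, so the order of the sum was that of Pecam1. The part of endothelial cells in the order of Adamdec1 and Adam28 was not tested. The sum of 6 B and plasma cell markers was 239 to 428 CPM over the macrophage libraries, with overlapping subsets and Jchain, at 189 to 369 CPM, as most of it. The sum of 5 T cell markers was highest where Mmp9 was, with 2.28 to 4.67 CPM in Tim-4-CD4-, 5.16 to 7.39 CPM in Tim-4-CD4+, and 3.96 to 5.06 CPM in Tim-4+CD4+ macrophages. The first and last of these ranges overlapped, while Mmp9 separated all 3 subsets. Cd3e had 0.466 to 1.04, 1.72 to 2.95, and 1.16 to 1.67 CPM in the same subsets, without overlap. Cd2 and Cd8a overlapped across the subsets. The sum of 7 dendritic cell markers was 143 to 215 CPM in Tim-4-CD4-, 108 to 125 CPM in Tim-4-CD4+, and 102 to 158 CPM in Tim-4+CD4+ macrophages. The 215 CPM was Tim-4-CD4- replicate 3, and the rest of its subset had 143 to 160 CPM. That replicate had 24.7 CPM of Itgae and 67.7 CPM of Cd209a, against at most 5.43 and 31.8 CPM in the rest. Flt3 and Cd209a were higher in every Tim-4-CD4- library than in any CD4+ library, while Batf3 and Xcr1 overlapped across the subsets. The 8 epithelial markers summed to 12.01 to 29.98 CPM in macrophages. Of 8 eosinophil and mast cell markers 6 were in the table, and their sum had the order of Adam28 and Adamdec1, with 6.26 to 9.87 CPM in Tim-4-CD4-, 9.28 to 11.2 CPM in Tim-4-CD4+, and 12.01 to 18.3 CPM in Tim-4+CD4+ macrophages. Most of it was Siglecf, with means of 7.01, 9.22, and 13.7 CPM, while Prg2, at a lower level, did not have this order. The part of these cell types in the levels of the 10 genes and of the wider lists was not tested.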

How the data were processed

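Raw counts per gene were deposited for 15 libraries. Per the labels and methods, the authors made strand-specific mRNA libraries, used Trimmomatic 0.36 on the paired reads, STAR for alignment (GRCm38.p4), and HTSeq 0.6.1p1 with GENCODE vM11 to count the reads that mapped uniquely. The strand setting is not given in the sources used here. The deposited counts hold genes with at least 16 reads in total, and 15 columns of the same counts divided by size factors were not used. Of 19456 identifiers, 19421 matched a GENCODE vM21 symbol.

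Counts were filtered with filterByExpr, scaled by TMM, and fitted once over 15 libraries with edgeR 4.0.16 (quasi-likelihood, R 4.3.3). The 6 pairwise comparisons were adjusted by the Benjamini-Hochberg method over 15802 genes, with a threshold of 0.05. CPM used TMM-scaled totals, RPKM the union of GENCODE vM21 exons, and log2 levels a prior count of 2. A count of 0 was bounded by 3 reads, which covers counting error only. SE is the fitted log2 difference divided by the root of its F statistic.

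Groups came from the sample titles. The 10 genes, the wider lists, and the markers were chosen with earlier results of these data known. Named genes were all 10, the up to 3 called genes of the wider lists with the largest fold in each direction and a mean of at least 1 CPM, and for each of the 8 genes the 3 most alike. Some genes that these rules or the marker lists name are not reported here. Coding sequences were translated and aligned with Biopython 1.88 in place of reference proteins, with no protein sequence printed. No replicate pair was alike within sampling noise (chi-square per degree of freedom 22.1 to 271.6 over 21 pairs). The alternatives were DESeq2 1.42.0, relative log expression and upper-quartile scaling, 2 other filters, fits of the 2 populations compared, replicate blocks, thinned counts, a 2-fold minimum, and leaving out each library. The fit was tested on simulated data.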

Additional observations from a re-analysis of the deposited data

Results flagged for a closer look

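In 4 of 72 groups of 4 libraries, a single library stood far from the other 3 by Dixon's ratio of gap to range, and chance alone marks about 1 in 20 groups. Mmp2 had 357 CPM in Tim-4+CD4+ replicate 1, with the next library at 283 CPM. Timp2 had 71.8 CPM in Tim-4+CD4+ replicate 3, above the next at 54.5 CPM. Spock1 had 1.09 CPM in Tim-4-CD4- replicate 4, above the next at 0.388 CPM, and Adamts6 had 0.292 CPM in Tim-4+CD4+ replicate 1, below the next at 0.595 CPM. Tim-4+CD4+ replicate 1 also had the highest sums of mesenchymal (163 CPM) and endothelial markers (372 CPM) of its subset, and their part in its Mmp2 was not tested.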

How the results depend on the processing

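No direction of a named difference past the threshold turned under any of the 24 alternatives. Of 2193 recomputed differences, 2151 kept their call or, for the 10 genes, moved by less than the spread, and 11 moved further. Lost calls were counted for the wider lists only. All 31 were those of Itgav, Cd44, and Mmp25 in Tim-4-CD4+ macrophages relative to the Tim-4-CD4- subset. Some alternatives also lost calls among the 10 genes. These were Mmp9 and Mmp12 between the CD4+ subsets, and Mmp13, Mmp14, and Timp1 in the Tim-4+CD4+ relative to the Tim-4-CD4- subset. The call of Timp1 between Tim-4-CD4- macrophages and monocytes was lost in some as well. Timp1, which was not past the threshold between Tim-4+CD4+ macrophages and monocytes (log2 0.12), was at log2 -0.50 when monocyte replicate 1 was left out. With a mean of at least 1 CPM required, which leaves fewer genes tested, the calls among the wider lists against monocytes were 28, 29, and 28 in place of 46, 48, and 48. For the Tim-4-CD4+ relative to the Tim-4-CD4- subset they were 11, and 3 with a 2-fold minimum, and 4 to 11 when each library was left out. In Tim-4+CD4+ macrophages relative to the Tim-4-CD4- subset they were 13, and 6 with a 2-fold minimum. Of the 10 genes, 4 passed between the CD4+ subsets, 1 with a 2-fold minimum and 2 to 4 when each library was left out. Of the 24 genes most like a member of the 10, 1 stayed after subtraction of population means, and 23 with a prior count of 0.5.

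The replicate numbers of the titles and of the descriptions disagree for Tim-4-CD4+ macrophages, and neither met the rule for pairing, that every same-numbered pair deviates together, since 3 and 6 of 12 same-numbered pairs had correlated deviations above 0.1, and 2 and 6 of 12 libraries correlated best with their own number. With a replicate block by the titles, the 11 calls were 6, and with a replicate block by the descriptions 8. With the first, 3 of the 10 genes passed between the CD4+ subsets, without Mmp9, and with the second 4. By the descriptions, the 3 pairs of number 4 had correlations of 0.29 to 0.32, and shared sorts were not tested otherwise.

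Over all genes, DESeq2 called 904 genes in place of 539 between the CD4+ subsets. A 2-fold minimum left 6034, 6681, and 6849 of 10341, 11027, and 11196 calls against monocytes and 483, 1336, and 277 of 1589, 3656, and 539 between subsets. Without Tim-4-CD4+ replicate 4, the 1589 calls were 1033. The median difference of all genes between Tim-4+CD4+ macrophages and monocytes was 0.10 on the log2 scale and 0.24 with DESeq2 and 0.21 with upper-quartile scaling. Depth limits Timp1, Adam28 in monocytes and Tim-4-CD4- macrophages, and Mmp8 in macrophages.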
